A study of Mus musculus with 16 samples.

Results

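Described here are the 10 genes that encode RESF1, the histone methyltransferases SETDB1 and SETDB2, the SETDB1 partners ATF7IP and TRIM28, the HUSH complex proteins MPHOSPH8 and periphilin with the HUSH effector MORC2A, and the HP1 proteins CBX3 and CBX5. They were chosen by name, as *Resf1*, *Setdb1*, *Setdb2*, *Atf7ip*, *Trim28*, *Mphosph8*, *Pphln1*, *Morc2a*, *Cbx3* and *Cbx5*, and all 10 were found among the 23609 genes of the table and passed the filter on low values. RNA-seq was performed on total RNA of whole primary mammary tumors, each from an animal carrying MMTV-PyMT, the polyoma middle T antigen driven by the MMTV promoter in mammary epithelium. The wildtype group carries no other allele by its labels, and the gene trap group consists of littermates that are *Resf1* +/-, with 1 trapped allele. In the gene trap allele, a lentiviral construct that expresses an EGFP-cre fusion sits in the first exon of *Resf1*, and being inherited it is present in tumor and stroma alike. The trap came from a C57BL/6 background and MMTV-PyMT from FVB. The study gives a humane endpoint for this cross and no age. Of 16 labelled tumors, 5 wildtype and 5 gene trap tumors had values that could be matched to a label, and p-values measure the spread between these tumors, which the labels do not tie to single animals.

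SETDB1 trimethylates lysine 9 of histone H3, a mark of silent chromatin, at endogenous retroviruses and other repeated sequences. It is brought there by TRIM28, a scaffold that KRAB zinc finger proteins recruit to DNA, and it is kept stable in the nucleus by ATF7IP. RESF1 is known as a SETDB1 partner that takes part in silencing endogenous retroviruses in embryonic stem cells. The HUSH complex, made of TASOR, MPHOSPH8 and periphilin, reads the same mark, brings in SETDB1 together with ATF7IP and acts with the ATPase MORC2, while the HP1 proteins CBX3 and CBX5 bind the mark and compact the chromatin.

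The values are estimated counts per gene that the authors had already normalized between tumors, and the column totals of the 10 tumors lay between 31995078 and 42153593. The depth of each tumor is therefore unknown. Gene trap replicate 2 was unlike the rest: its median correlation with the other tumors over all tested genes was 0.963, against 0.980 to 0.985 for the other 9. It held the lowest value of 75.5% of the 2228 tested processed pseudogenes and of 21.8% of all tested genes. Its column total was the highest, at 42153593, beside at most 37121386 in the other 9. The part of this difference in the results was not tested. All 8 epithelial markers were measured, with a summed value of 80850 to 105100 in wildtype and 83800 to 107400 in gene trap tumors. The tumors also held RNA of other cells, since 7 fibroblast markers summed to 39240 to 84270 in wildtype and 51940 to 120400 in gene trap tumors and 7 immune markers to 3743 to 5750 and 3757 to 6054, respectively. The 5 endothelial markers summed to 2462 to 4272 in wildtype and 2180 to 4047 in gene trap tumors, and the 3 tested adipocyte markers to 1912 to 7486 and 969 to 4415, respectively. All 5 and all 3 were lower with the trap on the log2 scale (median log2 fold change -0.13 and -0.48), as were 48.6% of all tested genes. By limma, 0 of these markers had an unadjusted p under 0.05, where 2.28% of all tested genes had one. The part of these markers in the results was not tested. No tested marker of these lists had a value under 1 in any tumor. In whole tumors, fewer cells of a type and less RNA per cell cannot be told apart.

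The promoters of 4 of the genes are shown here because the results turn on them. *Resf1* is the gene that carries the trap, *Cbx3* and *Mphosph8* had the strongest correlations with *Resf1* among the 9 partners, and *Mphosph8* and *Cbx5* formed the most strongly correlated pair. Each sequence is the stretch of 250 bases before the start site in RefSeq on GRCm38.p6, read along the gene, and where a gene has 2 listed starts the upstream one is shown. Capitals mark CCAAT, a motif of promoters that the factor NF-Y binds, on either strand. They also mark a stretch with 4 runs of at least 3 G or C bases spaced by 1 to 7 bases. This is the pattern of a predicted G4 quadruplex. A spacer may itself hold the base of the runs, so a long unbroken run can count as more than 1.
Resf1, chr6:149309164-149309413, plus strand: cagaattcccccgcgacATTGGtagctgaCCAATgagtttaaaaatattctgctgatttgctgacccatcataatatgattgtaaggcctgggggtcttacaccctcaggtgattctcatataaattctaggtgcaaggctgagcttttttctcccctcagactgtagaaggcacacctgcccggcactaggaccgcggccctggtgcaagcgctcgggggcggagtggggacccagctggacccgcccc
Cbx3, chr6:51470366-51470615, plus strand: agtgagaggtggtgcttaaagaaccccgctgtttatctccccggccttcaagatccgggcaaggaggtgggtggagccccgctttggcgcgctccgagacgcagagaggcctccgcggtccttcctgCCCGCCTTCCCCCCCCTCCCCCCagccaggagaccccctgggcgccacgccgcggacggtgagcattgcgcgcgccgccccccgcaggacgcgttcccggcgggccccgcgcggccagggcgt
Mphosph8, chr14:56667998-56668247, plus strand: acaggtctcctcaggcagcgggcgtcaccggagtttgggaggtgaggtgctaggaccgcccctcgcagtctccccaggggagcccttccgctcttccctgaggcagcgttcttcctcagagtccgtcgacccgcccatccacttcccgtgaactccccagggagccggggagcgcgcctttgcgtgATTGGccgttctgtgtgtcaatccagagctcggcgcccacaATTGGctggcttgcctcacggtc
Cbx5, chr15:103239853-103240102, minus strand: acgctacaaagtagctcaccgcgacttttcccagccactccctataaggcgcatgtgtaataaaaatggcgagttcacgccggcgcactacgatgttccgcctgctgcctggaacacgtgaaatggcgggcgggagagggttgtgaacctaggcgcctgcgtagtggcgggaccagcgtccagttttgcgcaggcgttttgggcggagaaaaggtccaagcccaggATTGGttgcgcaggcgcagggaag

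The *Resf1* promoter held CCAAT on both strands, 221 and 233 bases before the start, and the trap lies downstream of this window. *Mphosph8* and *Cbx5* each held CCAAT on the strand opposite to the gene, read as ATTGG, close to the start, at 23 and 24 bases, and *Mphosph8* held another at 64 bases. Of the 10 genes, 7 had CCAAT on either strand, against 37.5% of 27025 genes with a promoter sequence. *Cbx3* was the only one of the 10 with the predicted G4 pattern, on the strand opposite to the gene, against 18.5% of all genes. Its stretch met the pattern only because an unbroken run of C was split, and the share of all genes was counted by the same rule. The GC box GGGCGG was found in 8 of the 10 genes and in 35.4% of all genes, and its letters can also form part of a G-run stretch. The ETS motif CCGGAAG was found in 2 of the 10 genes and 7.83% of all genes, and TATAAA in 2 of the 10 and 14.3% of all. In these counts a gene had a motif if any of its listed starts had it. CCGGAAG of *Pphln1* and TATAAA of *Morc2a* lay only before the downstream one of 2 starts. The 27025 genes were not limited to those tested in the tumors, so the shares are not those of expressed genes. A match is a description of letters and not of binding.

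Levels were compared between genes per kilobase of annotated exon, averaged over the 10 tumors. *Trim28* was the most abundant of the 10, with a normalized value of 1545 ± 232 per kilobase (SD, n = 10), higher than 95.8% of the tested genes with a known length. The HP1 genes followed, with *Cbx5* at 755 ± 70.5 (SD, n = 10) and *Cbx3* at 520 ± 38.5 (SD, n = 10) per kilobase. *Morc2a* at 476 ± 28.4, *Resf1* at 396 ± 49.1 and *Setdb1* at 370 ± 32.8 (SD, n = 10) formed a middle group per kilobase. *Mphosph8* lay at 264 ± 17.8, *Atf7ip* at 208 ± 19.6 and *Pphln1* at 168 ± 10.7 (SD, n = 10) per kilobase. *Setdb2* was the lowest, at 82.3 ± 6.36 (SD, n = 10) per kilobase. In this order, the ranges over tumors of *Cbx3* and *Morc2a*, of *Morc2a* and *Resf1*, of *Resf1* and *Setdb1*, of *Mphosph8* and *Atf7ip* and of *Atf7ip* and *Pphln1* overlapped. Neighbors without overlap were *Trim28* and *Cbx5*, *Cbx5* and *Cbx3*, *Setdb1* and *Mphosph8*, and *Pphln1* and *Setdb2*. The length is that of all annotated exons together, 20726 bases for *Atf7ip*, and a gene whose long forms are little used has an understated level.

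The 10 genes varied less between tumors than the median of all tested genes. Their coefficients of variation over the 10 tumors had a median of 8.3%, against 17.6% over all 21034 tested genes and 11.2% over the 11012 genes averaging 300 or more. *Morc2a*, at 5.97%, varied least, and *Trim28*, at 15.1%, varied most, followed by *Resf1* at 12.4%. These 2 genes were the members above the median of the more abundant genes.

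*Resf1* comes first because it carries the trap. Its normalized value was 4215, 4397, 3881, 4487 and 3517 in wildtype replicates 1 to 5 and 4029, 3066, 3686, 3392 and 3409 in gene trap replicates 1 to 5. In 3 of 5 gene trap tumors it lay below the lowest wildtype tumor, and the groups overlapped through gene trap replicates 1 and 3. The mean in gene trap tumors was 0.858 of that in wildtype tumors (log2 fold change -0.22, standard error 0.09, 95% interval of the ratio 0.748 to 0.984, adjusted p = 0.9997 over all genes by limma). *Resf1* was the only one of the 10 genes with an unadjusted p under 0.05 (0.0313), where 2.28% of all tested genes had one. That p was above 0.05 in limma in 6 of the 10 fits that left out 1 tumor (without wildtype replicates 1, 2 or 4 or gene trap replicates 2, 4 or 5), where it lay between 0.0590 and 0.0782, and the log2 fold change without gene trap replicate 2 was -0.17.

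*Setdb1*, the methyltransferase, had a normalized value of 2805, 2272, 2311, 2383 and 2459 in wildtype replicates 1 to 5. It was 2991, 2440, 2535, 2656 and 2482 in gene trap replicates 1 to 5. Replicate 1 was the highest tumor in each group, and the ranges overlapped. The log2 fold change was 0.10 (standard error 0.08), with a 95% interval of the ratio from 0.949 to 1.21 (limma, adjusted p = 0.9997). *Setdb2*, a related methyltransferase, lay between 285 and 341 in wildtype and between 316 and 383 in gene trap tumors, a ratio of 1.06 (95% interval 0.914 to 1.22). In 3 of 5 gene trap tumors *Setdb2* was above the highest wildtype tumor, and the other 2 were within the wildtype range.

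*Atf7ip* had a normalized value of 4808, 3746, 4172, 4207 and 4360 in wildtype replicates 1 to 5. It was 4593, 4486, 4926, 3763 and 3989 in gene trap replicates 1 to 5, and the ratio of the groups was 1.02 (95% interval 0.890 to 1.169). The 2 ranges nearly coincided. *Trim28* had a normalized value of 5959, 6784, 7077, 7313 and 5893 in wildtype replicates 1 to 5. It was 6114, 4228, 6339, 7609 and 6903 in gene trap replicates 1 to 5. Gene trap replicate 2 was the lowest of all 10 tumors and gene trap replicate 4 the highest. The log2 fold change of *Trim28* was -0.10 (standard error 0.14), and without gene trap replicate 2 it was 0.03.

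Of the HUSH genes, *Mphosph8*, whose product reads the methylated histone, had a normalized value of 982, 886, 920, 843 and 1004 in wildtype replicates 1 to 5. It was 974, 1022, 892, 1030 and 923 in gene trap replicates 1 to 5, with gene trap replicates 2 and 4 above all wildtype tumors. The ratio of the groups was 1.04 (95% interval 0.930 to 1.174). *Pphln1*, which encodes periphilin, lay between 689 and 826 in wildtype and between 730 and 838 in gene trap tumors, a ratio of 1.03 (95% interval 0.914 to 1.16). *Morc2a* lay between 2820 and 3278 in wildtype tumors, and all 5 gene trap tumors, at 2857 to 3194, lay within that range. Its ratio was 1.02 (95% interval 0.923 to 1.14).

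The HP1 gene *Cbx3* had a normalized value of 3004, 3021, 3069, 3001 and 3165 in wildtype replicates 1 to 5, a spread of 68.9 (SD, n = 5). It was 2953, 3485, 2716, 3357 and 3355 in gene trap replicates 1 to 5, a spread of 325 (SD, n = 5). Gene trap tumors lay on both sides of the wildtype range, with 3 above and 2 below it, and the ratio of the means was 1.04 (95% interval 0.923 to 1.16). *Cbx5* had a normalized value of 7066, 5623, 6804, 6671 and 7202 in wildtype replicates 1 to 5. It was 6988, 7345, 6319, 7813 and 6168 in gene trap replicates 1 to 5, with 2 of 5 above the highest wildtype tumor and a ratio of 1.04 (95% interval 0.905 to 1.19).

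**Figure D1:**
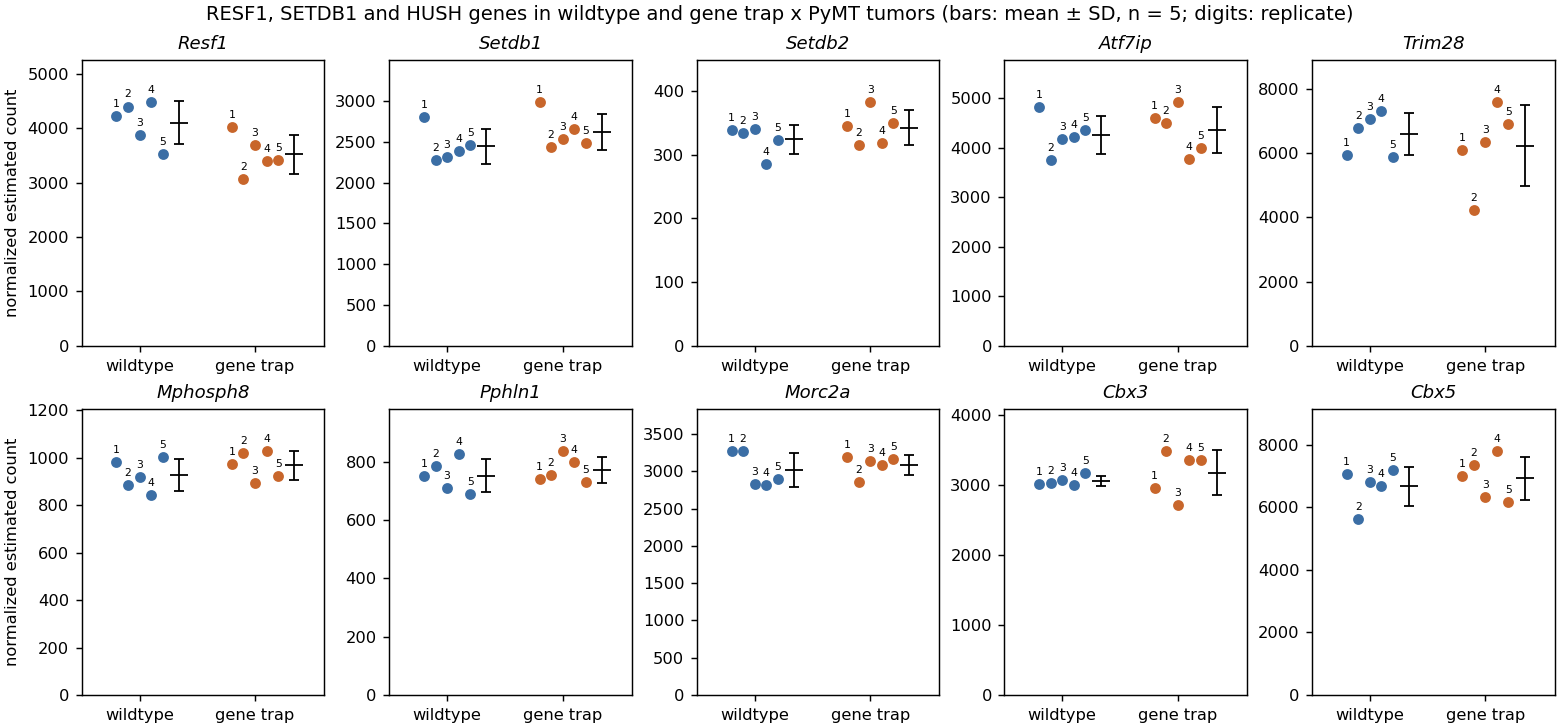
Normalized estimated count (y axis, from 0) of each of the 10 genes in 5 wildtype (blue) and 5 gene trap (orange) tumors, with digits for the replicate and bars for the mean ± SD. *Resf1* is below the lowest wildtype tumor in 3 of 5 gene trap tumors, *Trim28* is lowest in gene trap replicate 2, at 4228, and the groups overlap for every gene.

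Across the 10 genes, the mean was higher in gene trap tumors for 8 and lower for *Resf1* and *Trim28*. The median log2 fold change was 0.05, beside 0.00 (0.0047) over all tested genes, of which 51.4% were higher. None of the 10 had an adjusted p under 0.05, and the share over all genes was 0% (0 of 21034, limma, with 479 at an unadjusted p under 0.05). The groups did not overlap for 0 of the 10 genes, where they did not overlap for 0.528% of all tested genes. For the 9 genes other than *Resf1*, the 95% intervals of the ratio lay within 0.755 and 1.22 with 5 tumors per group.

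**Figure D2:**
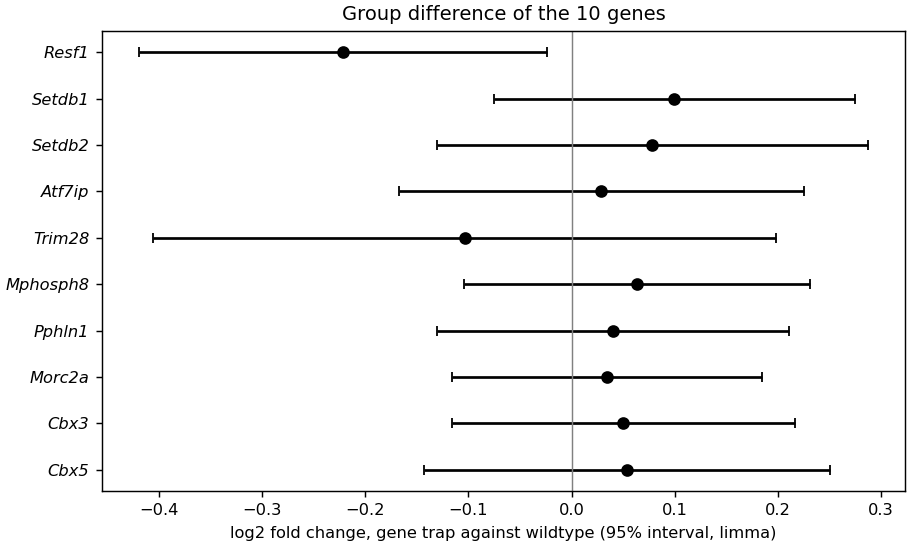
Log2 fold change of gene trap against wildtype tumors (x axis) with the 95% interval of limma for each of the 10 genes (5 tumors per group). The interval of *Resf1*, at -0.22, lies below 0, and the intervals of the other 9 genes include 0.

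Within each tumor, *Resf1* was also divided by each of its 9 partners, which removes any scaling shared by the genes of a tumor. These ratios were chosen after the values had been seen and are given with no test. *Resf1* divided by *Setdb1* was 1.503, 1.936, 1.679, 1.883 and 1.43 in wildtype replicates 1 to 5. It was 1.347, 1.256, 1.454, 1.277 and 1.373 in gene trap replicates 1 to 5, so that 4 of 5 gene trap tumors lay below the lowest wildtype tumor. The mean ratio was 1.69 ± 0.224 (SD, n = 5) in wildtype tumors against 1.34 ± 0.0791 (SD, n = 5) with the trap, which is 0.796 of the wildtype value and the largest shift of the 9. *Resf1* divided by *Pphln1* was 5.61, 5.61, 5.46, 5.44 and 5.11 in wildtype replicates 1 to 5 and 5.44, 4.06, 4.40, 4.24 and 4.67 in gene trap replicates 1 to 5. Gene trap replicate 1 alone lay among the wildtype tumors in that ratio. For *Setdb2* and *Morc2a*, too, 4 of 5 gene trap tumors had a ratio below the lowest wildtype tumor. *Resf1*, which all 9 ratios share, was itself at 0.858 of wildtype, with 3 of 5 gene trap tumors below the lowest wildtype tumor. The share of all genes that reach 4 of 5 in such a ratio was not counted, so these counts are no result about the partners. The ratio to *Trim28* was the most mixed, at 0.623 ± 0.0594 (SD, n = 5) in wildtype and 0.581 ± 0.115 (SD, n = 5) with the trap, and its highest value, 0.725, was in gene trap replicate 2. For 0 of the 9 partners were all gene trap tumors below all wildtype tumors, as they were for *Resf1* divided by 2.15% of the 21033 other tested genes.

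**Figure D3:**
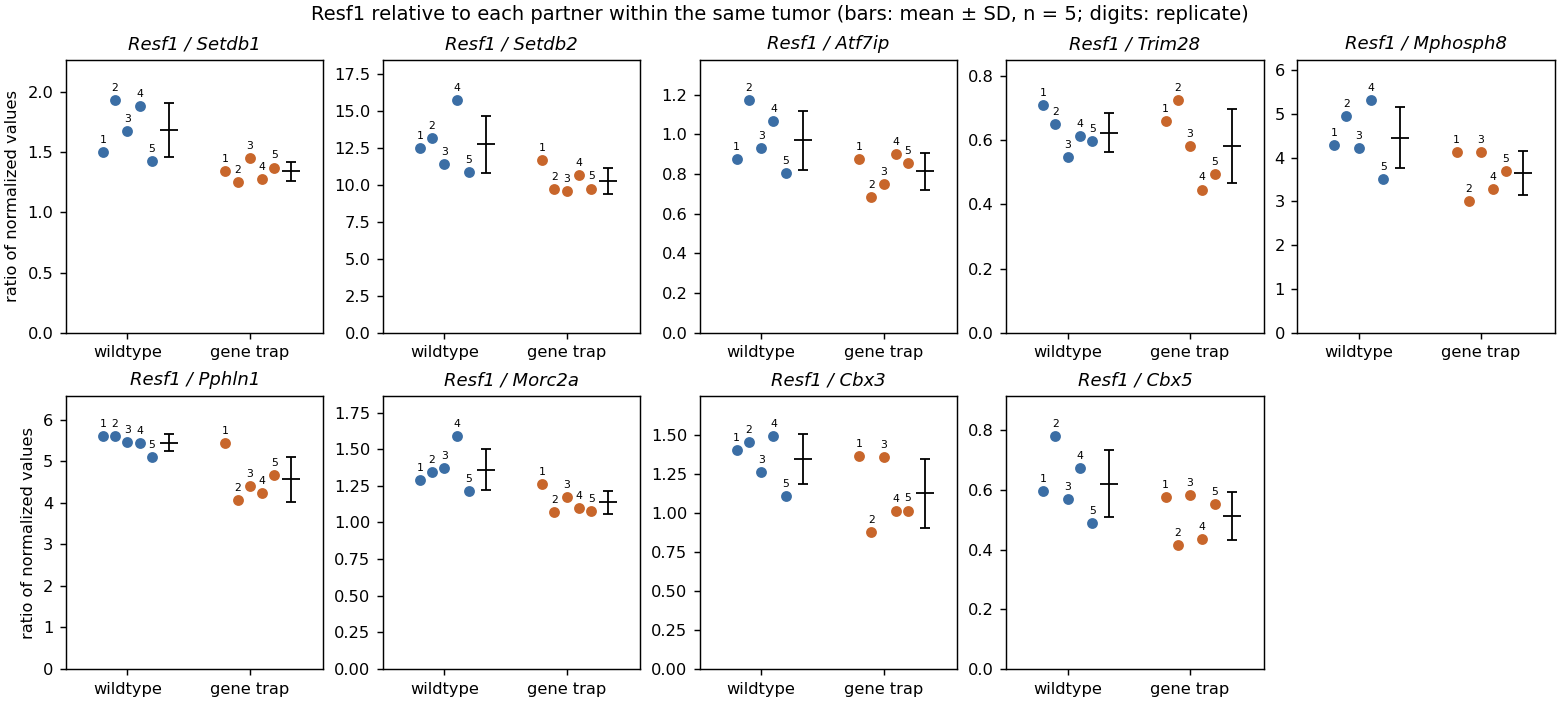
*Resf1* divided by each of its 9 partners within the same tumor (y axis, ratio of normalized values, from 0) in 5 wildtype (blue) and 5 gene trap (orange) tumors, with digits for the replicate and bars for the mean ± SD. The mean ratio to *Setdb1* is 1.69 in wildtype and 1.34 in gene trap tumors, and each of the 9 ratios overlaps between the groups.

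The covariation of the partners with *Resf1* was examined over the log2 values of all 10 tumors, since 5 tumors of a group are too few for a correlation. Of the 9 partners, 3 had a positive and 6 a negative Pearson r with *Resf1*, with a median of -0.01 (-0.007). Over the 21033 other tested genes the median r was -0.011, and 51.1% were negative. *Setdb1*, the RESF1 partner, and *Atf7ip*, the SETDB1 partner, had r of -0.007 and -0.001 with *Resf1* (Spearman rho -0.20 and 0.03, permutation p = 0.984 and 0.997). *Setdb2* had an r of -0.14, *Pphln1* of 0.26 and *Morc2a* of 0.25 (rho -0.006, 0.19 and 0.20, permutation p = 0.705, 0.460 and 0.471). With the group means removed, r was 0.39 for *Setdb1*, 0.56 for *Pphln1* and 0.52 for *Morc2a*. Without gene trap replicate 2, r was -0.11 for *Setdb1*, -0.36 for *Setdb2*, 0.12 for *Atf7ip*, 0.30 for *Pphln1* and 0.04 (0.038) for *Morc2a*.

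*Cbx3* and *Mphosph8* were the partners with an unadjusted permutation p under 0.05, 2 of 9, where 9.05% of all tested genes had one. Both were higher where *Resf1* was lower. For *Cbx3*, r was -0.67 (permutation p = 0.0362) and rho -0.73 (permutation p = 0.0210). For *Mphosph8*, r was -0.655 (permutation p = 0.0428) and rho -0.75 (permutation p = 0.0172). Adjusted over all 21033 genes correlated with *Resf1*, p was 0.538 for *Cbx3* and 0.545 for *Mphosph8*, and the smallest adjusted p of any gene was 0.210. Only 2.25% of all genes had a lower r with *Resf1* than *Cbx3* and 2.60% a lower r than *Mphosph8*. When gene trap replicate 2 and wildtype replicate 4, the tumors farthest from the median of *Resf1*, were left out, r was -0.53 for *Cbx3* and -0.37 for *Mphosph8*. Without gene trap replicate 2 alone, r of *Mphosph8* was -0.565 (exact permutation p = 0.114). *Cbx5* had an r of -0.46 (permutation p = 0.180) and a rho of -0.53 (permutation p = 0.123), and without these tumors r was -0.42. Without gene trap replicate 2 alone, it was -0.37.

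*Cbx3* shares sequence with its processed pseudogenes, so its value and theirs are uncertain, and how reads were divided between them was not tested. Of these, 5 are in the table, and each had its lowest value in gene trap replicate 2, as did 75.5% of all tested processed pseudogenes. Their sum was 574 in that tumor and 981 to 1185 in the other 9, while *Cbx3* itself was highest there, at 3485. The sum of *Cbx3* and its pseudogenes was 4059 in gene trap replicate 2, within the range of 3701 to 4542 of the other tumors. With the pseudogenes added, the mean was 4122 ± 133 (SD, n = 5) in wildtype tumors against 4140 ± 339 (SD, n = 5) with the trap, and the r with *Resf1* was -0.37 (permutation p = 0.289; rho -0.47, permutation p = 0.179). Without gene trap replicate 2, r of *Cbx3* alone was -0.51 (exact permutation p = 0.162), and without gene trap replicate 3, where *Cbx3* was lowest, it was -0.93 (exact permutation p = 0.000311). These 2 values were the ends of the range over the 10 correlations that left out 1 tumor, and their p are unadjusted. The sum and the 2 tumors named were chosen after the values had been seen.

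*Trim28* had the highest r with *Resf1* of the 9 partners, at 0.48 (permutation p = 0.160; rho 0.20, permutation p = 0.584). Gene trap replicate 2 had the lowest value of both genes, and without it r was -0.06 (exact permutation p = 0.878). Without the 2 tumors farthest from the median of *Resf1*, r was -0.33. The positive r of *Trim28* thus rested on 1 tumor.

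**Figure D4:**
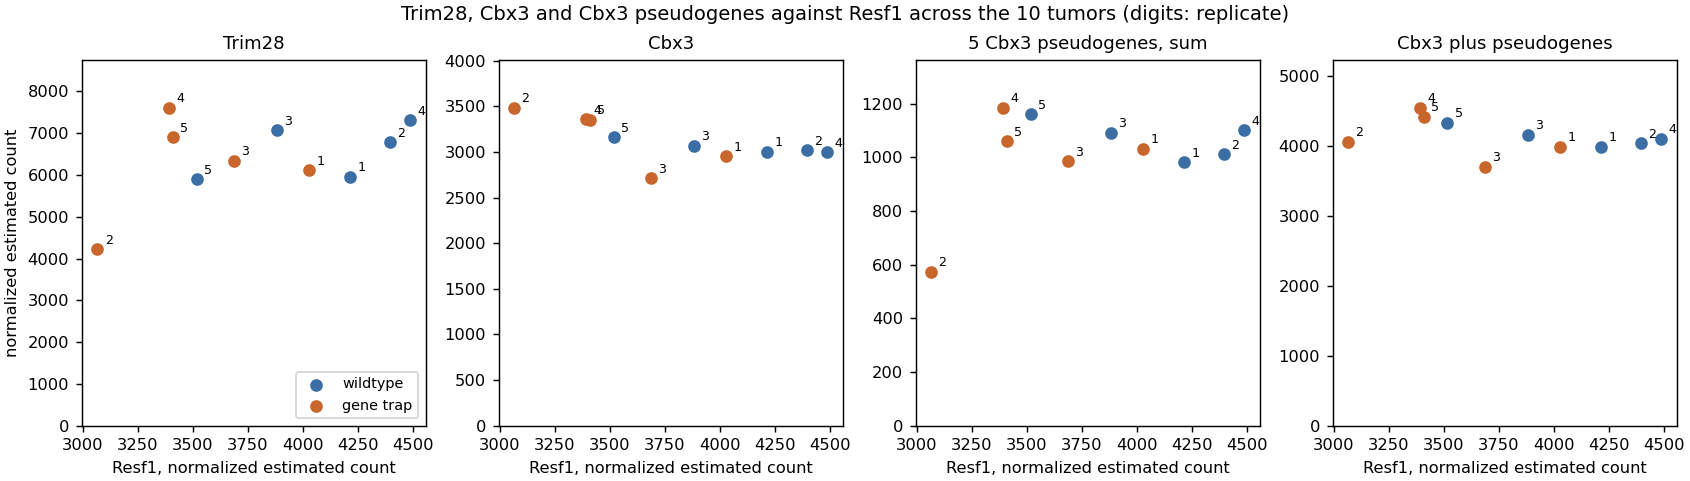
Normalized estimated counts of *Trim28*, *Cbx3*, the 5 *Cbx3* pseudogenes summed and *Cbx3* plus its pseudogenes (y axes, from 0) against *Resf1* (x axis, which does not start at 0) in 5 wildtype (blue) and 5 gene trap (orange) tumors, with digits for the replicate. Gene trap replicate 2 is lowest for *Trim28*, at 4228, and for the pseudogenes, at 574, and lies within the other tumors for the sum of *Cbx3* and its pseudogenes, at 4059.

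Among all 45 pairs of the 10 genes, 21 had a positive and 24 a negative r, with a median of -0.005, and 3 (6.67%) had an unadjusted permutation p under 0.05. The share over all pairs of tested genes was not counted, so this count is no result about the 10 genes. Beside the 2 pairs with *Resf1*, the other pair was *Mphosph8* and *Cbx5*, at r = 0.77 (permutation p = 0.00904) and rho = 0.88 (permutation p = 0.00179). Adjusted over the 45 pairs, these p were 0.407 and 0.0806, and 0 pairs had an adjusted p under 0.05 by Pearson's r. Without wildtype replicate 4 and gene trap replicate 4, the tumors farthest from the median of *Mphosph8*, r of this pair was 0.89, and without gene trap replicate 2 it was 0.74. Both genes were lower in wildtype replicate 2 than in wildtype replicates 1, 3 and 5 and both were highest in gene trap replicate 4. Over the 10 tumors, *Mphosph8*, *Pphln1* and *Morc2a* did not form a block. Their r was -0.45 between *Mphosph8* and *Pphln1*, 0.03 between *Mphosph8* and *Morc2a* and 0.17 between *Pphln1* and *Morc2a* (rho -0.31, 0.06 and -0.02, permutation p = 0.189, 0.926 and 0.632). Without the 2 tumors farthest from the median of the first gene of each pair, r was -0.52, -0.40 and 0.51, respectively. *Tasor*, the other HUSH gene, was not set against them. *Setdb1* and *Atf7ip* had an r of 0.47 (rho 0.54, permutation p = 0.170). The pair of HP1 genes had an r of 0.41 (rho 0.48, permutation p = 0.233).

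**Figure D5:**
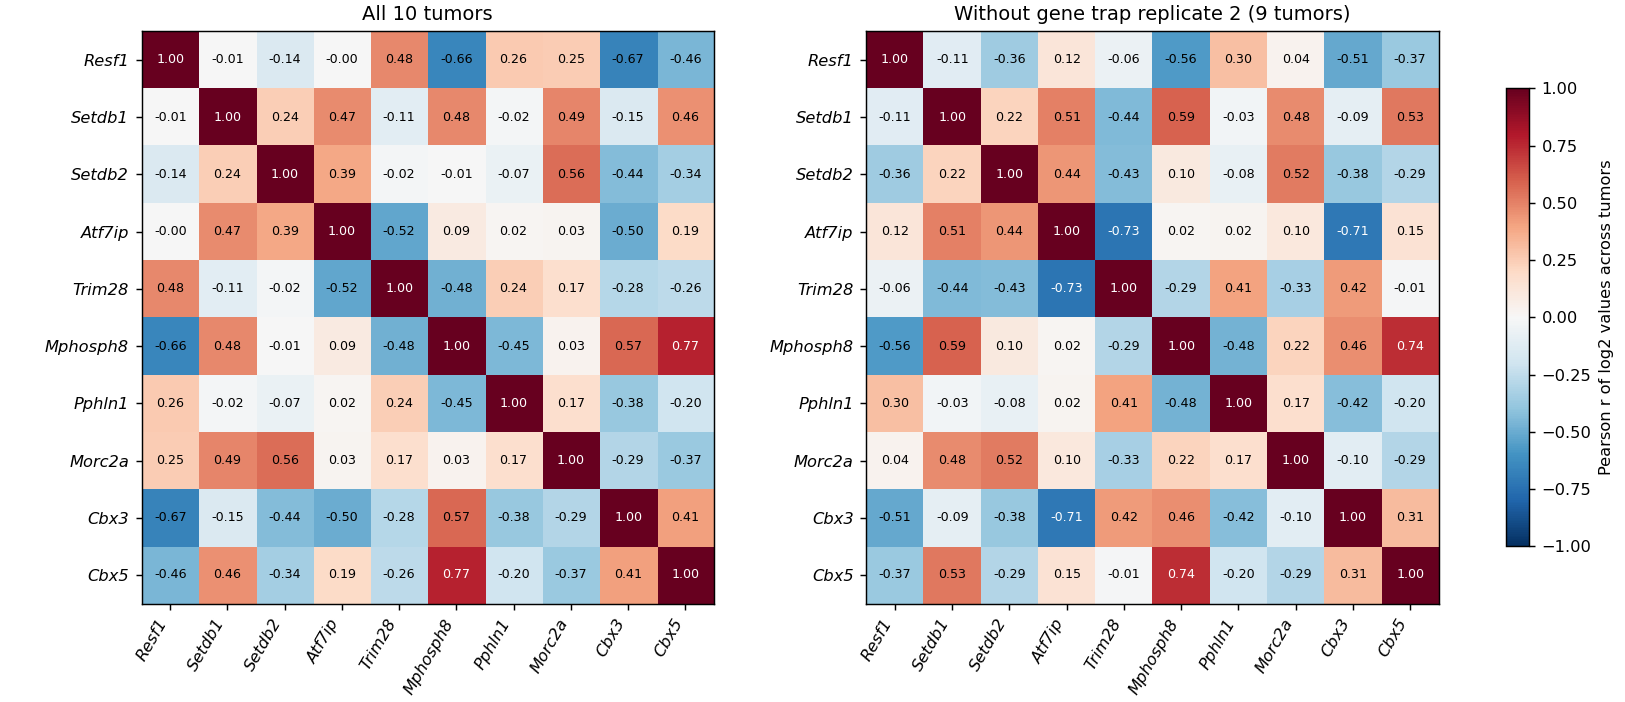
Pearson r of log2 values between each pair of the 10 genes (color and printed value, -1 to 1) over all 10 tumors at left and over 9 tumors without gene trap replicate 2 at right. *Mphosph8* and *Cbx5* have r of 0.77 and 0.74, while *Resf1* and *Trim28* have 0.48 and -0.06.

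The genes most like *Resf1* across tumors were taken from the 13997 other genes with a symbol that averaged 100 or more, as the 5 highest and the 5 lowest r. The highest were *Aplp2*, an amyloid precursor-like protein (r = 0.92), *Flna*, the actin crosslinker filamin A (r = 0.91), *Tln2*, a talin that links integrins to actin (r = 0.88), the processed pseudogene *Gm15361* (r = 0.88) and *Megf9* (r = 0.87). The lowest were the zinc finger gene *Zfp429* (r = -0.93), *Rad9a*, part of a DNA damage checkpoint clamp (r = -0.93), *Mum1* (r = -0.91), *Mettl5*, a ribosomal RNA methyltransferase (r = -0.88), and *Bcl7a*, a BAF complex subunit (r = -0.87). The Spearman coefficient lay between 0.867 and 0.952 for the first 5 and between -0.976 and -0.806 for the last 5, and p adjusted over all genes lay between 0.210 and 0.496 (permutation test). As the genes were chosen for these values, they are a description. Without gene trap replicate 2, r lay between 0.816 and 0.885 and between -0.906 and -0.845, respectively. Without the 2 tumors farthest from the median of *Resf1* it lay between 0.772 and 0.878 and between -0.898 and -0.802. The 9 partners, with r between -0.67 and 0.48, were not among these genes. As so few of the 13997 genes were taken, this is no result about the partners.

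Other genes of the same silencing pathways were taken from a list of 20, of which 19 were tested. Of these, 9 were higher and 10 lower in gene trap tumors, 0 had an adjusted p under 0.05 or an unadjusted p under 0.05 by limma, and the median log2 fold change was -0.01. *Tasor*, the core subunit of HUSH, averaged 4836 ± 580 in wildtype and 4845 ± 570 in gene trap tumors (SD, n = 5). The third HP1 gene, *Cbx1*, had the largest difference of the list, at 4158 ± 263 and 4724 ± 936 (SD, n = 5; log2 fold change 0.17, standard error 0.12). Its r with *Resf1* was -0.60 (unadjusted permutation p = 0.0542), beside a median r of -0.02 over the 19 genes. Of all tested genes, 9.05% had an unadjusted permutation p under 0.05 with *Resf1*. How far the values of *Cbx1* rest on 1 tumor was not tested. Of 10 KRAB zinc finger genes that can recruit TRIM28, 9 were tested. Of the 9, 5 were higher and 4 lower, and 0 passed either threshold of p, beside the same shares over all genes. *Zfp445*, which with *Zfp57* protects imprinted regions, was the most abundant of them, at 6162 ± 395 in wildtype and 6290 ± 468 in gene trap tumors (SD, n = 5).

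Of 12 germline genes known to be silenced with the help of SETDB1, 4 were in the table and 2 passed the filter, and the others were not analysed here. *Tdrkh*, a piRNA pathway gene, averaged 193 ± 21.2 in wildtype and 226 ± 35.2 in gene trap tumors (SD, n = 5; log2 fold change 0.22, standard error 0.13, limma, adjusted p = 0.9997). *Sycp1*, a synaptonemal complex gene, was at 82.8 ± 28.9 and 86.9 ± 7.34 (SD, n = 5), respectively. The summed value of these 2 genes was 229 to 329 in wildtype and 274 to 367 in gene trap tumors. Over the 10 tumors, r with *Resf1* was -0.65 for *Tdrkh* (unadjusted permutation p = 0.0412) and -0.23 for *Sycp1* (unadjusted permutation p = 0.516). In that test 9.05% of all tested genes had an unadjusted p under 0.05. For the sum of the 2 genes r was -0.58 (permutation p = 0.0784), and -0.29 without the 2 tumors farthest from the median of *Resf1*. The sum was highest in gene trap replicate 2, at 367, and *Tdrkh* alone was not examined without that tumor.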

How the data were processed

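The values used are a signal made by the authors, namely estimated gene counts that they normalized between tumors before deposition, with 0 zeros. The submitters' processing notes name STAR (version 2.7.8a), Partek, DESeq2 and the build mm39, while the counter and annotation are not given in the sources used here. Of 16 value columns, 10 had a name that fits one labelled tumor, and the 6 others were not used. Depth per tumor is unknown.

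Values were converted to log2 after a pseudocount of 1 was added, and the 21034 genes with a mean of at least 10 went into a two-sided limma model (limma 3.58.1 under R 4.3.3) with a mean-variance trend, the group as only factor and Benjamini-Hochberg adjustment over all tested genes. Correlations were tested with 100000 two-sided permutations, or exactly with 9 tumors or fewer. The limma fit was run on simulated data with independent noise and no tumor unlike the rest. It therefore does not show how well changes would be found in these tumors. Symbols were found for 22899 of 23609 IDs, with *Tasor* listed as *Fam208a* and *Tasor2* as *Fam208b*. Exon lengths came from GENCODE M21, promoters from RefSeq on GRCm38.p6, another build than that of the submitters, with sequences for all 10 genes. The members and lists were chosen with earlier results of these data known. Genes named in the text are the 10 members, genes of the lists and the 5 highest and 5 lowest correlations with *Resf1*, and those picked from the lists were chosen after their values were seen. Values are given for the named genes, and the other listed genes enter only through the counts of their lists. Alternatives were the replicate block, each tumor left out, other filters, pseudocounts and scalings, weights per tumor and no variance trend, and the sum of *Cbx3* with its pseudogenes was added after the data were seen. Plots were made in Python 3.11.15 with matplotlib 3.10.9.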

Additional observations from a re-analysis of the deposited data

Results flagged for a closer look

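Within groups of 5 tumors, 96 sets of values were examined for a single distant tumor, and 2 were found, fewer than the 4.8 that chance alone gives. For *Tasor2*, a paralog of the HUSH subunit *Tasor*, gene trap replicate 2 had 3018, below the 3659 to 3869 of its 4 group members. For the summed fibroblast markers, gene trap replicate 1 had 120400, above the 51940 to 63250 of its 4 group members. The part of either tumor in the results above was not tested beyond the values given without it.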

How the results depend on the processing

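In limma, 0 genes were called in each of the 19 alternatives, while 308 to 692 had an unadjusted p below 0.05. The log2 fold change of *Resf1* lay between -0.28 and -0.17 when each tumor was left out and between -0.22 and -0.18 in the other alternatives. The unadjusted p of *Resf1* rose above 0.05 in 6 of 10 fits that left out a tumor, and also with weights per tumor (0.0542) and without the variance trend (0.0544). Of the 10 genes, 2 were lower in gene trap tumors, and 1 to 4 when each tumor was left out, with 1 without gene trap replicate 2 and 4 without wildtype replicate 2. When each tumor was left out, the log2 fold change lay between -0.0175 and 0.0796 for *Atf7ip*, between -0.182 and 0.0299 for *Trim28* and between -0.007 and 0.0938 for *Cbx5*. The other 7 genes did not change sign in the 19 alternatives. With the pseudogenes added, the log2 fold change of *Cbx3* was 0.00 (0.0032).

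The r with *Resf1* changed sign for 4 of the 9 partners. When each tumor was left out, it lay between -0.18 and 0.21 for *Setdb1*, between -0.36 and 0.31 for *Setdb2*, between -0.18 and 0.27 for *Atf7ip* and between -0.0576 and 0.674 for *Trim28*. With the group means removed, r was 0.39 for *Setdb1*, 0.135 for *Setdb2* and 0.0936 for *Atf7ip*. Without the 2 tumors farthest from the median of *Resf1*, it was 0.0244 for *Setdb1*, 0.0539 for *Setdb2*, 0.175 for *Atf7ip* and -0.33 for *Trim28*. With quantile normalization r was 0.11 for *Setdb1* and 0.133 for *Atf7ip*, and rho of *Atf7ip* was 0.0303. The cause was not tested. The r of *Cbx3* lay between -0.93 and -0.51 and that of *Mphosph8* between -0.76 and -0.52 when each tumor was left out, and with quantile normalization they were -0.81 and -0.42.

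Tumors of the same replicate number share only the number, and the mean correlation of their deviations was -0.00977 for the 5 pairs. In the fit with a replicate block, 0 genes were called, 426 had an unadjusted p under 0.05, the log2 fold change of *Resf1* was -0.22 (unadjusted p = 0.0447 in limma) and 2 of the 10 genes were lower. With depth unknown, no counting error can be given.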

Other observations

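The 10 genes were also set against summed cell type and proliferation markers, in 50 relations over the 10 tumors, and 0 had an adjusted p under 0.05. Over all 10 tumors, *Atf7ip* had the highest r, 0.81 with the 7 immune markers (rho 0.78, permutation p = 0.0063, adjusted p = 0.315 over the 50 relations). It was 0.61 without wildtype replicate 2 and gene trap replicate 4, the tumors farthest from the median of the markers, and 0.88 without gene trap replicate 2. *Cbx5* had an r of 0.70 with the 10 proliferation markers (rho 0.60, permutation p = 0.0224, adjusted p = 0.421). It was 0.53 (0.525) without wildtype replicate 5 and gene trap replicate 4 and 0.91 without gene trap replicate 2. The proliferation markers summed to 30100 to 46540 in wildtype and 30630 to 46370 in gene trap tumors. *Cbx3* had an r of 0.66 with the 8 epithelial markers (rho 0.66, permutation p = 0.037, adjusted p = 0.421) and -0.64 with the 5 endothelial markers (rho -0.52, permutation p = 0.0455, adjusted p = 0.421). Without gene trap replicate 2, these were 0.56 and -0.46. Without that tumor, the r of *Cbx5* with the proliferation markers was above that of *Atf7ip* with the immune markers, and *Mphosph8* with the proliferation markers went from 0.56 to 0.83. *Trim28*, lowest in that tumor, went from 0.02 (0.017) to 0.83 with the epithelial, from 0.18 to -0.84 with the endothelial and from -0.19 to -0.72 (-0.715) with the immune markers when it was left out. These values without 1 tumor are a description with no test. The part of these cells in the levels of the genes was not tested.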
